A study of Mus musculus with 18 samples.

Results

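Mitochondrial ribosomal protein genes were examined in astrocytes of the mouse primary motor cortex (M1), strain C57BL/6. The members were chosen by name, as every gene in the deposited table called Mrpl or Mrps followed by a number and at most 1 letter. This gave 77 genes of 23924 read from the table, with 48 large subunit (Mrpl) and 29 small subunit (Mrps) names. Mrps16 was singled out because its values differed between training groups in these same libraries, so its values are described here without a test.

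There were 18 RNA-seq libraries, 6 each from naive, novice and expert mice. All mice carried the label C57BL/6 and are described as wild type, water restricted and, apart from the naive group, trained to push a lever on cue, with a drop of water as reward. Naive mice of 12 to 21 weeks had no training, novice mice of 11 to 13 weeks had 3 days of it, and expert mice of 13 to 15 weeks were fully trained. Each group had 2 libraries labelled female and 4 labelled male, and the labels do not say that every library came from a separate mouse, so the tests measure the spread between libraries. The comparisons ask how early and completed motor learning are reflected in the transcripts of motor cortex astrocytes.

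Mitochondria keep their own ribosome, which makes the few inner membrane proteins of the respiratory chain and ATP synthase that the mitochondrial genome encodes. Its RNAs come from mitochondrial DNA, but all of its proteins are encoded in the nucleus, made in the cytosol and imported. The small subunit reads the messenger RNA and the large subunit joins the amino acids. Many of these proteins descend from bacterial ribosomal proteins and others exist only in mitochondria. Mrps16 is the counterpart of bacterial protein S16, a component of the small subunit body, and inherited loss of human MRPS16 impairs mitochondrial translation.

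Values are in FPKM, a fragment count divided by transcript length and library size, so levels of different genes are compared per length. The number of whole fragments behind a value could be recovered for 68 of the 77 members. The median was 13 fragments per member and library, and 41.2% of the 1224 values rested on 10 fragments or fewer. Fragments in all recovered genes ranged from 152575 in naive 6 to 701007 in expert 3. The mean FPKM over 1482 olfactory, vomeronasal and taste receptor genes, which are silent in most brain cells and are called the silent-gene signal below, was 0.302 to 3.34 in 10 libraries and 4.72 to 6.78 in the other 8. Those 8 were 2 naive, 4 novice and 2 expert libraries. All 10 astrocyte markers were above 0 in all libraries, with a summed level of 2910 to 7066 FPKM in the 10 libraries of lower and 1384 to 2116 FPKM in the 8 of higher silent-gene signal. The 8 neuronal markers were also above 0 throughout and summed to 86.0 to 436 FPKM among naive, 104 to 546 among novice and 107 to 467 among expert libraries, or 175 to 546 in the lower and 86.0 to 179 in the higher class. The other marker lists reached sums of 375 FPKM for endothelial cells, which exceeded the neuronal sum in 9 of 18 libraries, 248 for pericytes and smooth muscle, 216 for the oligodendrocyte lineage, 57.7 for microglia and 9.05 for blood. The microglial marker Tmem119, the oligodendrocyte marker Mag and the blood marker Hba-a1 were at 0 in some libraries. The part of these sums in the results was not tested, and in bulk RNA fewer cells of a type and less RNA per cell cannot be told apart. Novice 1 and novice 3 did not match their labelled sex. Novice 1, labelled female, had Xist at 1.60 FPKM and 28.9 FPKM over 4 Y-linked genes, and novice 3, labelled male, had 17.97 and 8.0.

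Mrps16 was lower in the novice libraries than in all naive and most expert libraries. Its level among naive libraries was 13.3 FPKM at the lowest, 19.2 at the median and 45.0 at the highest. In novice libraries it was 3.65, 6.24 and 12.4 FPKM, and among expert libraries 8.72, 16.1 and 27.1. Each novice library was below each naive library, while expert libraries overlapped both other groups. The means were 23.2 ± 12.0 FPKM (SD, n = 6) among naive, 6.91 ± 3.10 among novice and 17.2 ± 7.32 among expert libraries, a ratio of means of 3.36 for naive over novice. On the log2(FPKM + 1) scale the novice group differed from naive by -1.57 (SE 0.33), expert from naive by -0.38 (SE 0.33) and expert from novice by 1.19 (SE 0.33). The gap between the highest novice and the lowest naive value is narrow, at 12.4 against 13.3 FPKM. Of all 21745 genes tested, 0.0644% lay below naive without overlap in the novice group, and Mrps16 was the only one of the 77 members to do so. Because Mrps16 was chosen for these values, nothing is read from that count.

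**Figure D1:**
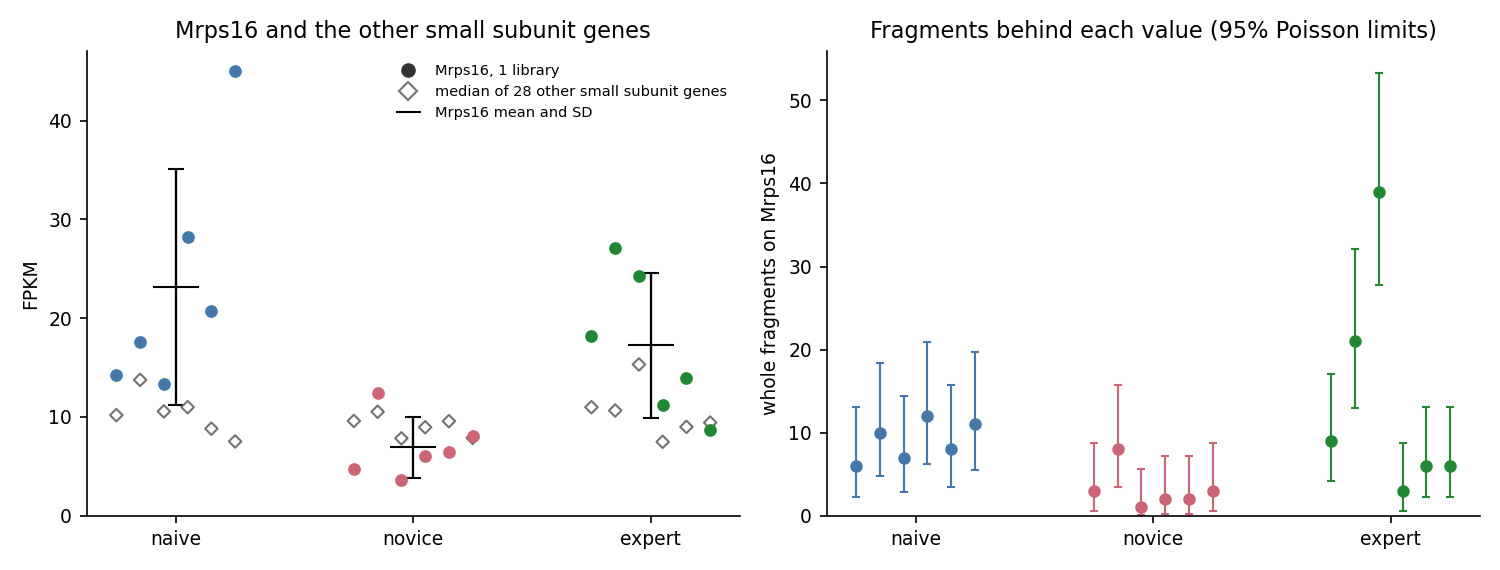
Left, FPKM of Mrps16 in each library (circles, coloured by group, with mean and SD) and the median of the 28 other small subunit genes in the same library (open diamonds). Right, the whole fragments behind each Mrps16 value with exact 95% Poisson limits. The 6 novice circles lie between 3.65 and 12.4 FPKM and rest on 1 to 8 fragments, while the diamonds stay between 7.48 and 15.3 FPKM in all groups.

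The fragments behind these values were few. Mrps16 had 6 to 12 fragments in each naive library, 1 to 8 in each novice library and 3 to 39 in each expert library. Summed over a group, that was 54 fragments among naive (40.2 CPM, counts scaled to the recovered total of the group, exact 95% Poisson interval 30.2 to 52.5), 19 among novice (13.7, interval 8.22 to 21.3) and 84 among expert (41.2, interval 32.9 to 51.0). These intervals cover counting error only and leave out the spread between libraries, and expert 3 alone gave 39 of the 84 expert fragments.

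Set against its own subunit, Mrps16 lay above the middle among naive libraries, mostly below it among novice libraries and mostly above it among expert libraries. Its ratio to the median of the other 28 small subunit genes in the same library was 1.26 to 5.99 (median 1.88) among naive, 0.466 to 1.18 (median 0.674) among novice and 0.926 to 2.54 (median 1.57) among expert libraries. That small subunit median itself was 10.3 ± 2.12 FPKM (SD, n = 6) among naive, 9.06 ± 1.06 among novice and 10.5 ± 2.68 among expert libraries, which overlap. By mean level per length Mrps16 took place 15 of the 77 members among naive, 57 among novice and 20 among expert libraries. By median fragments, which are not divided by length, it took place 45 of the 68 recovered members among naive, 66 among novice and 60 among expert libraries. The places per length rest on a transcript length of 412 nucleotides implied by the FPKM values, against 2572 annotated.

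The values of Mrps16 are given next by class of silent-gene signal. As each novice library was below each naive one, the order of these groups within a class is fixed by the choice of the gene and supports nothing. Among the 10 libraries of lower signal it was 13.3 to 28.2 FPKM over 4 naive, 4.77 to 12.4 over 2 novice and 8.72 to 27.1 over 4 expert libraries. Among the 8 of higher signal it was 20.8 to 45.0 FPKM over 2 naive, 3.65 to 8.11 over 4 novice and 11.2 to 13.9 over 2 expert libraries. The log2 difference of novice from naive was -1.08 within the lower class and -2.21 within the higher class. Expert differed from naive by 0.04 in the lower and -1.23 in the higher class, so these values depend on the libraries taken. Without novice 1 and novice 3 the novice difference from naive was -1.31 and the expert difference from novice 0.93.

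On the chromosome, Mrps16 lies next to Dnajc9 on one side and to Ttc18 (now Cfap70) and Anxa7 on the other, by the order of genes in RefSeq. Dnajc9, a histone-binding co-chaperone, had 8.42 ± 3.43 FPKM (SD, n = 6) among naive, 5.20 ± 1.86 among novice and 7.83 ± 2.27 among expert libraries. Its log2 difference of novice from naive was -0.58 (SE 0.28, limma adjusted p = 0.89). Ttc18 was at 2.20 ± 2.0, 3.23 ± 1.62 and 2.14 ± 1.43 FPKM and Anxa7, a calcium-dependent membrane-binding protein, at 7.78 ± 1.39, 7.42 ± 1.03 and 9.95 ± 3.53 FPKM among naive, novice and expert libraries. None of these neighbours passed the test in any comparison.

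The 250 bases before the start of Mrps16 and of Mrpl34, the large subunit gene with the lowest fold change, are shown because the results turn on these 2 genes. They come from RefSeq on build GRCm38.p6, at chr14:20393635-20393884 on the minus strand for the more upstream of 2 annotated Mrps16 starts and at chr8:71464676-71464925 on the plus strand for Mrpl34. Capitals mark TGCGCA, the core of the motif of NRF1, and CCGGAAG, a motif of GABPA, both known regulators of nuclear genes for mitochondrial proteins.
Mrps16: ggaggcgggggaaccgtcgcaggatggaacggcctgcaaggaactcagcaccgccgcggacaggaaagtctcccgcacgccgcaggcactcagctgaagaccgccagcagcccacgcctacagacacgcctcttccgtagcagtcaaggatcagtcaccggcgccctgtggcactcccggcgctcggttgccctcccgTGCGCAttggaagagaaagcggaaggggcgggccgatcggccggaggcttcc
Mrpl34: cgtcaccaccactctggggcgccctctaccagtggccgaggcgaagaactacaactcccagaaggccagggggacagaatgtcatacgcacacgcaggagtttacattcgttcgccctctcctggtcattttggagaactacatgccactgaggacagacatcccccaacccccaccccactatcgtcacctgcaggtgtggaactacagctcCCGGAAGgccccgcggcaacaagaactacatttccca

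In Mrps16 the NRF1 core begins 52 bases before the start. The window of the other annotated Mrps16 start holds the same core 196 bases before that start and GABPA matches beginning 74 bases before and 24 after it, the letters of which are not shown. In Mrpl34 the GABPA motif begins 37 bases before it. Across the family, 68 genes had RefSeq windows, 74 in all, each of 300 bases from 250 before the start. Searched on both strands, TGCGCA stood in 28.4% of these windows against 7.76% of all 32851 windows and 9.74% of the 21263 windows of protein-coding genes. CCGGAAG stood in 33.8% against 8.86% and 11.6%, and AAGATGGCG, a motif of YY1, in 10.8% against 1.40% and 1.83%. None of the 3 motifs contains another, and a match is a description of the letters only.

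As a family, the mitochondrial ribosomal protein genes differed little between groups. All 77 members passed the filter of at least 1 FPKM in at least 6 libraries, and 68 of them reached 1 FPKM in all 18. The least often detected were Mrps27, which reached it in 15 libraries, and Mrpl34, in 16. The median over members of the mean level was 10.5 FPKM among naive, 9.55 among novice and 11.0 among expert libraries. The range of mean levels was 3.21 (Mrps27) to 72.0 FPKM (Mrpl52) among naive libraries. Large and small subunit genes lay at similar levels, with medians over genes of 10.9 and 10.5 FPKM among naive, 10.1 and 9.10 among novice and 11.3 and 10.9 among expert libraries. Within a library, the large subunit median over the small subunit median was 0.798 to 1.32 among naive, 0.984 to 1.33 among novice and 0.845 to 1.35 among expert libraries, which overlap throughout.

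**Figure D2:**
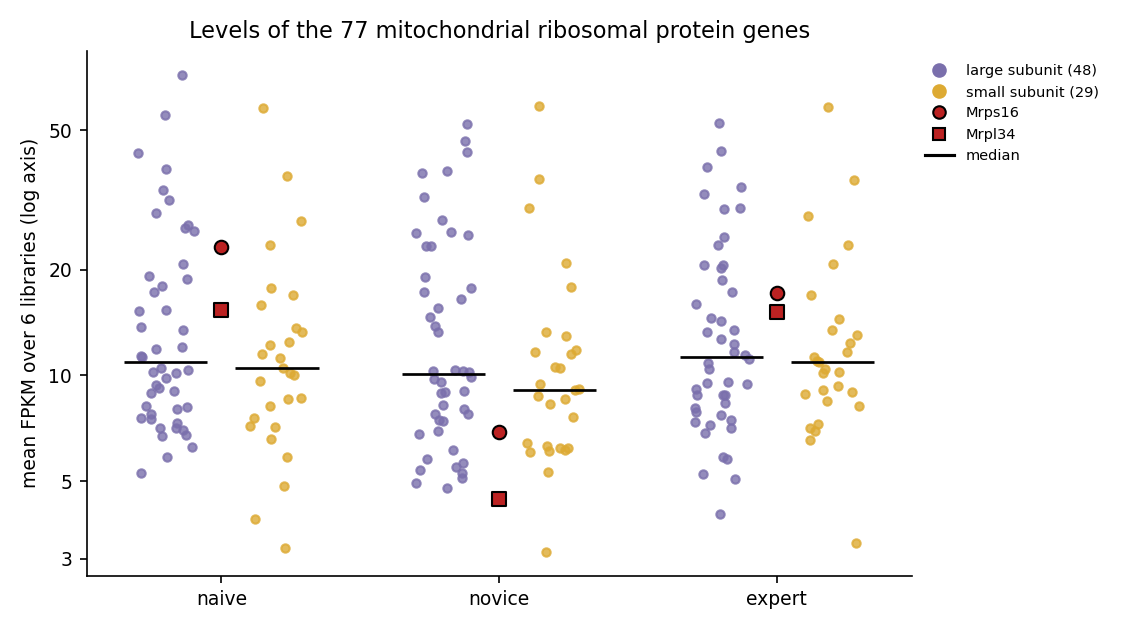
Mean FPKM over 6 libraries (log axis) of each mitochondrial ribosomal protein gene in each group, with large and small subunit genes side by side, their medians as lines, and Mrps16 and Mrpl34 in red. Mrps16 is at 23.2 FPKM among naive, 6.91 among novice and 17.2 among expert libraries, while the subunit medians lie between 9.10 and 11.3 FPKM.

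In novice against naive libraries, 0 of the 76 members other than Mrps16 passed the limma test, and 0.0% of all tested genes did. At an unadjusted p under 0.05, 3 of the 76 were lower (Mrpl32, Mrpl34 and Mrpl55) and 0 higher, beside 1.88% and 2.72% of all tested genes. By sign alone, 29 of 48 large and 19 of 29 small subunit genes were lower, beside 43.0% of all tested genes and 62.9% of the 6442 tested genes of like mean level. Their median log2 differences were -0.05 (-0.13 to 0.038 over the other settings tried, apart from leaving out single libraries) and -0.04 (-0.11 to 0.067), beside 0.07 for all tested genes and -0.10 for those of like level. Both subunit medians were thus nearer to that of genes of like level than to that of all tested genes.

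Mrpl34, a large subunit protein with a bacterial counterpart, had a larger fold change than Mrps16. Its level was 7.80 FPKM at the lowest, 15.3 at the median and 24.6 at the highest among naive libraries, 0, 4.31 and 10.2 among novice and 3.05, 15.0 and 28.04 among expert libraries. The novice libraries were mostly below the naive ones, with overlap, and novice 4 and novice 6 had no fragment. The log2 difference of novice from naive was -2.06 (SE 0.59, limma adjusted p = 0.89) and of expert from novice 1.88 (SE 0.59, limma adjusted p = 0.45). Over the group, 50 fragments among naive, 17 among novice and 98 among expert libraries lay behind these values. The 4 novice libraries of higher silent-gene signal had 0 to 2 Mrpl34 fragments and the other 2 had 6 and 8, and the part of that signal in the difference was not tested. Mrpl34 took place 24 of 77 among naive, 76 among novice and 23 among expert libraries.

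Mrpl55 and Mrpl32 were the other members below an unadjusted p of 0.05 in this comparison. Mrpl55, the counterpart of bacterial L31, was at 7.45, 11.8 and 17.7 FPKM (lowest, median, highest) among naive, 3.8, 5.30 and 9.77 among novice and 5.84, 12.2 and 14.6 among expert libraries, and 3 naive values lay within the novice range. Its log2 difference of novice from naive was -0.86 (SE 0.27, limma adjusted p = 0.89). Mrpl32, which must be cut by the inner membrane m-AAA protease before it joins the ribosome, was at 5.66, 10.1 and 15.8 FPKM among naive, 0, 5.05 and 10.4 among novice and 2.39, 7.35 and 11.2 among expert libraries. The groups overlapped, and its log2 difference of novice from naive was -1.12 (SE 0.48, limma adjusted p = 0.89), or -0.66 without novice 3, in which it was at 0. Among the small subunit genes other than Mrps16, Mrps6 and Mrps35 had log2 differences of -0.80 (SE 0.41) and -0.85 (SE 0.44), neither past the threshold, and that of Mrps6 was -0.52 without novice 6. In the other direction, Mrpl10 differed by 0.45 (SE 0.33). Mrpl14 differed by 0.69 (SE 0.54), which was 0.14 without naive 6, in which it was at 0. Without naive 4, in which it was at 28.3 FPKM, the difference was 1.12.

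**Figure D3:**
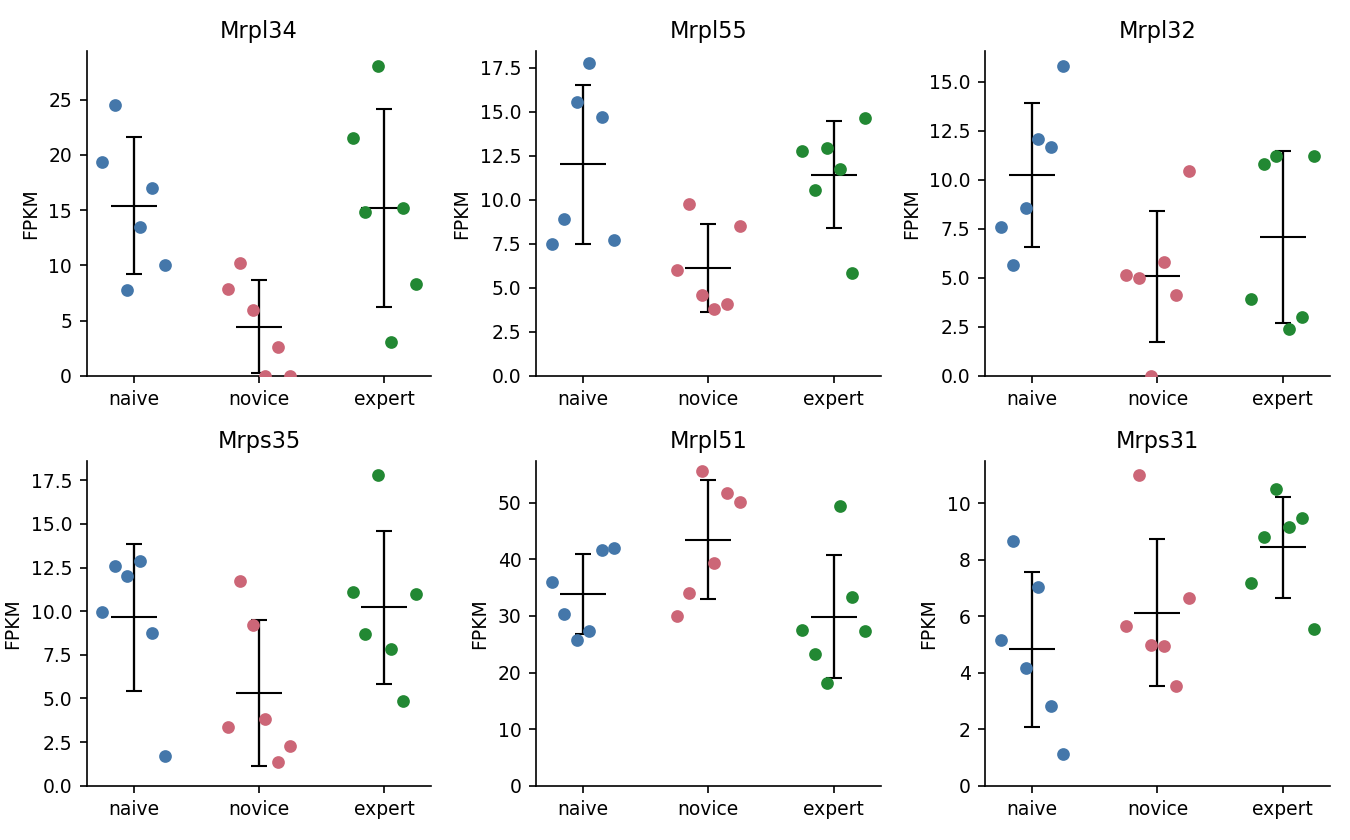
FPKM in each library, with mean and SD of 6 libraries, for the 6 members other than Mrps16 with an unadjusted p under 0.05 in at least 1 comparison. Novice values of Mrpl34 run from 0 to 10.2 FPKM against 7.80 to 24.6 among naive libraries, and each panel shows overlapping groups.

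In expert against naive libraries, 0 of the 76 members passed the limma test, and 0.0% of all tested genes did. At an unadjusted p under 0.05, 0 were lower and 1 was higher, beside 1.43% of all tested genes in each direction. That gene was Mrps31, a small subunit protein found only in mitochondria. It was at 1.12, 4.66 and 8.65 FPKM (lowest, median, highest) among naive, 3.51, 5.31 and 11.0 among novice and 5.55, 8.97 and 10.5 among expert libraries, so the expert values lay mostly in the upper part of the naive range or above it. The log2 difference of expert from naive was 0.83 (SE 0.31, limma adjusted p = 1.0). By sign, 31 of 48 large and 12 of 29 small subunit genes were lower, beside 56.1% of all tested genes and 45.0% of those of like level. The medians were -0.11 (-0.15 to 0.034 over the same settings) and 0.01 (-0.11 to 0.16), beside -0.05 for all tested genes and 0.03 for genes of like level. Groups overlapped for all 77 members, as for all but 0.0414% (lower) and 0.0368% (higher) of all tested genes.

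In expert against novice libraries, 0 of the 76 members passed the limma test, and 0.0% of all tested genes did. At an unadjusted p under 0.05, 3 members were higher (Mrpl34, Mrpl55 and Mrps35) and 1 lower (Mrpl51), beside 4.88% and 5.97% of all tested genes. In either direction, 906 of the 6442 tested genes of like level and 2360 of all 21745 were below that p. The comparison shares its novice libraries with the first one, so the members low in novice appear in both. Mrps35, a mitochondrion-specific small subunit protein, was at 1.72, 11.0 and 12.8 FPKM (lowest, median, highest) among naive, 1.36, 3.58 and 11.8 among novice and 4.88, 9.84 and 17.8 among expert libraries. The groups overlapped, and the log2 difference of expert from novice was 1.0 (SE 0.44, limma adjusted p = 0.45). Mrpl51, a mitochondrion-specific large subunit protein, went the other way, with 25.8, 33.2 and 41.9 FPKM among naive, 29.98, 44.8 and 55.6 among novice and 18.1, 27.4 and 49.5 among expert libraries and a log2 difference of -0.56 (SE 0.24, limma adjusted p = 0.45). Both genes also varied with the silent-gene signal. The median of Mrpl51 was 27.4 FPKM in the 10 libraries of lower and 45.7 in the 8 of higher signal. That of Mrps35 was 11.4 and 4.34 FPKM. Of those 8 libraries, 4 were novice and 2 expert, and the part of the signal in these differences was not tested. By sign, 23 of 48 large and 9 of 29 small subunit genes were lower, beside 59.6% of all tested genes and 34.8% of those of like level. The medians were 0.02 (-0.12 to 0.26 over the same settings) and 0.17 (-0.036 to 0.37), against -0.14 for all tested genes and 0.18 for genes of like level. Groups overlapped for all 77 members, as for all but 0.179% (lower) and 0.253% (higher) of all tested genes.

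**Figure D4:**
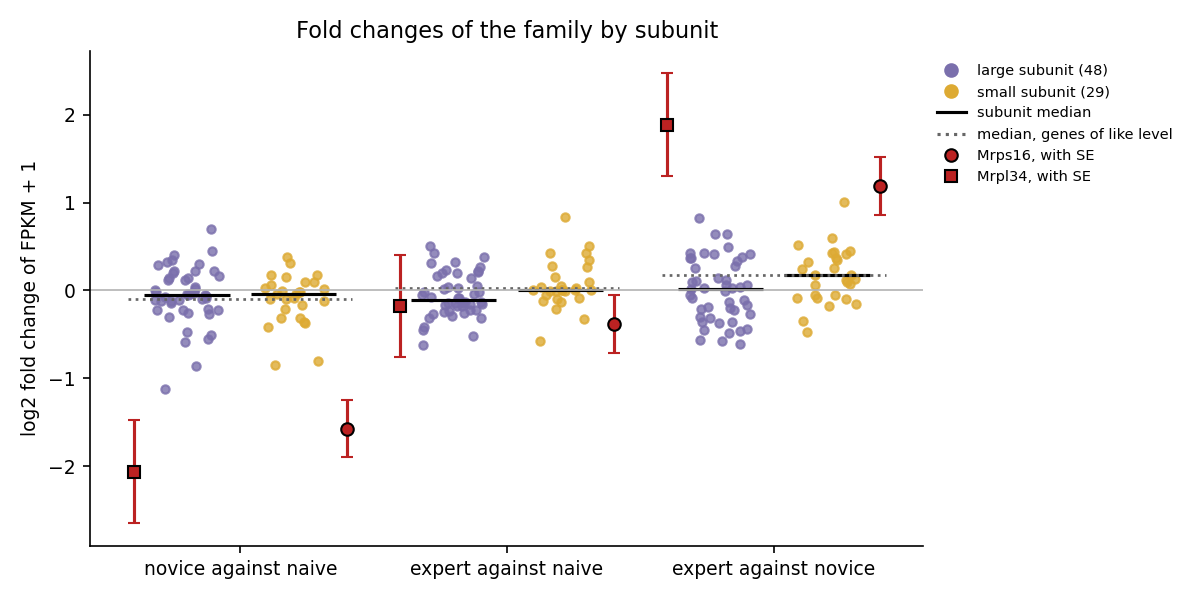
Log2 fold changes of FPKM + 1 for each member in the 3 comparisons, by subunit, with subunit medians as solid lines, the median of 6442 tested genes of like level as dotted lines, and Mrps16 and Mrpl34 in red with their standard errors. Subunit medians lie between -0.11 and 0.17, while Mrps16 is at -1.57 and Mrpl34 at -2.06 in novice against naive.

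The split by evolutionary origin gave no larger separation than the split by subunit. The 48 members with a bacterial counterpart had median log2 differences of -0.04 in novice against naive, -0.02 in expert against naive and 0.04 in expert against novice libraries. For the 28 members specific to mitochondria these were -0.05, -0.03 and 0.09. Mrps18a and Mrps30, which carry small subunit names but sit in the large subunit, were at 13.3 ± 6.09 and 8.59 ± 1.47 FPKM (SD, n = 6) among naive, 13.0 ± 7.11 and 8.30 ± 1.14 among novice and 11.3 ± 8.56 and 8.99 ± 2.87 among expert libraries. Counting them as large subunit genes left the novice medians at -0.05 for the large and -0.04 for the small subunit.

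Members with known places in the ribosome differed in both directions. In the stalk that recruits translation factors, Mrpl10 was at 13.5 ± 7.16 FPKM (SD, n = 6) among naive, 17.8 ± 5.21 among novice and 12.3 ± 6.77 among expert libraries, and Mrpl12 at 17.2 ± 10.5, 16.5 ± 3.49 and 14.6 ± 5.41. Mrpl11 at the base of the stalk was at 5.84 ± 1.71, 5.47 ± 0.693 and 5.85 ± 2.19 FPKM. At the exit tunnel, Mrpl45, which holds the ribosome at the inner membrane, was at 19.2 ± 8.73, 23.4 ± 8.01 and 17.3 ± 7.64 FPKM, Mrpl23 at 26.3 ± 11.0, 25.6 ± 10.7 and 20.6 ± 11.5, and Mrpl22 at 10.3 ± 4.32, 7.47 ± 3.54 and 11.6 ± 3.70. In the central protuberance, Mrpl18 was at 25.8 ± 8.85, 27.7 ± 6.86 and 29.99 ± 9.10 FPKM and Mrpl38 at 7.76 ± 1.51, 5.26 ± 2.81 and 7.24 ± 3.90. None of these genes passed the limma test in any comparison.

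In the small subunit, Mrps12, the counterpart of the bacterial decoding centre protein S12, was at 8.62 ± 3.65 FPKM (SD, n = 6) among naive, 10.5 ± 5.59 among novice and 9.09 ± 5.27 among expert libraries. Mrps7, in the head, was at 12.4 ± 2.85, 9.45 ± 2.14 and 12.4 ± 1.72 FPKM, with a log2 difference of novice from naive of -0.36 (SE 0.19). Mrps15, Mrps17 and Mrps22 had log2 differences of novice from naive of -0.31 (SE 0.37), 0.03 (SE 0.26) and -0.13 (SE 0.28). The highest small subunit level was that of Mrps21, at 57.9 ± 30.6, 58.5 ± 21.5 and 58.2 ± 29.4 FPKM, and the highest large subunit levels among naive libraries were those of Mrpl52, at 72.0 ± 37.1 FPKM, and Mrpl27, at 55.1 ± 22.9 FPKM.

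Genes that work with the mitochondrial ribosome were read from 7 lists, and 0 genes of any list passed the limma test in any comparison. Of the 6 ribosomal proteins that carry other names, 6 were lower in novice than among naive libraries, with a median log2 difference of -0.20, beside 43.0% of all tested genes and 62.9% of those of like mean level to the members lower. Chchd1, a small subunit protein, was at 26.9 ± 10.2 FPKM (SD, n = 6) among naive, 14.6 ± 7.58 among novice and 19.9 ± 6.00 among expert libraries, with a log2 difference of -0.96 (SE 0.38, limma adjusted p = 0.89). Ict1, a peptide release protein built into the large subunit, was at 17.4 ± 5.57, 13.3 ± 7.37 and 12.8 ± 5.44 FPKM. Among 11 translation factors, 5 were lower in novice against naive (median 0.09), among 25 assembly and RNA modification genes 15 were lower (median -0.05), and among 19 mitochondrial tRNA synthetases 11 were lower (median -0.06). In the other lists, 10 of 19 genes of mitochondrial transcription and RNA stability were lower, 5 of 7 of export and membrane insertion and 5 of 9 nuclear regulators.

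Single genes of these lists differed in both directions without passing the threshold. Oxa1l, the insertase that receives proteins from the mitochondrial ribosome, was at 10.3 ± 3.46 FPKM (SD, n = 6) among naive, 6.66 ± 1.61 among novice and 9.89 ± 1.34 among expert libraries, with log2 differences of -0.53 (SE 0.21, limma adjusted p = 0.89) for novice against naive and 0.53 (SE 0.21, limma adjusted p = 0.45) for expert against novice. Ears2, the mitochondrial glutamyl-tRNA synthetase, was at 0.956 ± 0.567, 3.04 ± 1.80 and 1.56 ± 0.699 FPKM, higher among novice libraries by 0.99 (SE 0.30, limma adjusted p = 0.89). Yars2, the tyrosyl-tRNA synthetase, was at 5.46 ± 2.83, 2.96 ± 1.29 and 3.31 ± 0.724 FPKM. The regulator gene Nrf1 was at 11.3 ± 3.28, 14.2 ± 4.12 and 11.3 ± 2.69 FPKM and Gabpb1, a subunit of the GABP factor, at 7.66 ± 5.12, 9.85 ± 2.80 and 5.6 ± 1.39.

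Across libraries, members varied with the silent-gene signal in both directions. When the log2 silent-gene signal was added to the group means in limma, 12 of 77 members rose with it and 25 fell, beside 36.8% and 18.8% of all tested genes. The 12 that rose were 10 large subunit genes with Mrps2 and Mrps24, and the 25 that fell were 10 large and 15 small subunit genes. Expert 3 had the lowest signal, at 0.302 FPKM against 1.55 in the next lowest library, and slopes without it were not fitted. Mrps30, counted among the 25, had medians of 8.68 and 8.55 FPKM in the libraries of lower and higher signal. Its highest value was 13.5 FPKM, in expert 3. Mrpl19, Mrpl39 and Mrpl45 did not overlap between the classes of library, beside 6.73% of all tested genes higher without overlap, and no member was lower without overlap, beside 5.89%. Mrpl45 was 9.03 to 15.5 FPKM in the 10 libraries of lower signal and 21.2 to 32.1 in the 8 of higher signal. Mrpl52 was 45.7 to 128 FPKM in the former (median 74.7) and 12.9 to 50.6 in the latter (median 31.0). Mrps16 had a slope of -0.12 (SE 0.13) log2 units per doubling of the signal, against 0.44 (SE 0.07) for Mrpl45 and -0.56 (SE 0.12) for Mrpl52.

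**Figure D5:**
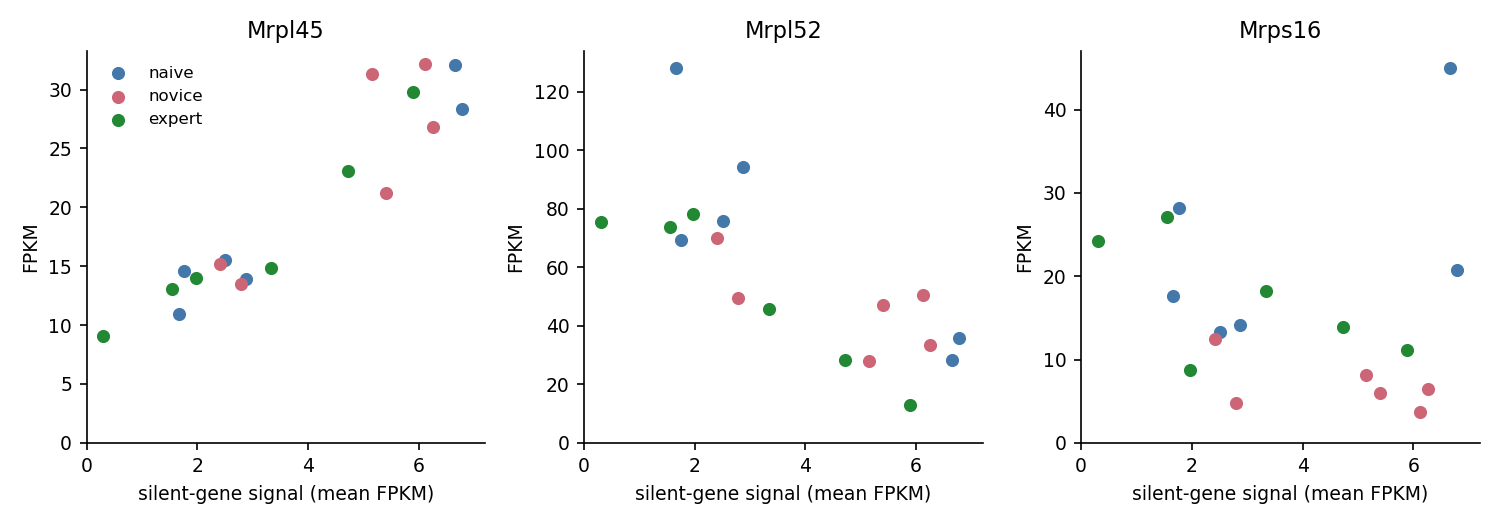
FPKM of Mrpl45, Mrpl52 and Mrps16 in each of the 18 libraries against the silent-gene signal of that library (mean FPKM over 1482 receptor genes), coloured by group. Mrpl45 is 9.03 to 15.5 FPKM in the libraries of lower signal and 21.2 to 32.1 in those of higher signal, Mrpl52 is lower in most libraries of higher signal, and Mrps16 is 3.65 to 12.4 FPKM in the novice libraries.

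The transcript length implied by the FPKM worth of 1 fragment had a median of 1869 nucleotides (range 598 to 5436) for 9 of the 12 members that rose with the signal. It was 834 (range 232 to 6648) for 23 of the 25 that fell and 966 (range 412 to 7382) for 36 of the other 40. Implied and annotated lengths can differ, as for Mrps16 at 412 against 2572 nucleotides. The longest annotated coding transcripts had medians of 2654, 1107 and 1249.5 nucleotides for all 12, 25 and 40 members. The ranges overlap, and the difference was not tested. Median log2 differences of the 12 that rose were 0.22 in novice against naive, -0.19 in expert against naive and -0.36 in expert against novice. The 25 that fell had -0.09, -0.0014 and 0.06 in the same order. The 40 others, which include Mrps16 and Mrpl34, had -0.07, 0.02 and 0.15. More novice than naive or expert libraries had a high signal, and its part in the differences of single members was not tested.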

How the data were processed

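Total RNA of motor cortex astrocytes was sequenced as stranded libraries on an Illumina HiSeq instrument, per the labels' protocols. TopHat and Cufflinks were run against mouse build mm9, per the submitters' processing notes. The sources used here give no versions, options or annotation. The authors deposited 1 FPKM value per gene and library under a title that speaks of normalized counts. Of 23951 entries, 27 had names turned into dates and were left out.

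The 21745 genes that reached 1 FPKM in 6 or more of the 18 libraries were fitted as log2(FPKM + 1) with limma 3.58.1 in R 4.3.3 (eBayes with a trend, 1 mean per group, two-sided, Benjamini-Hochberg over all tested genes, threshold 0.05). Fold changes on this scale understate those of low genes. Genes of like level lie between the 10th and 90th percentile of the members' levels. Whole fragments were recovered where a unit per gene made all 18 values whole within 0.1 fragment, for 16364 of 22197 genes (73.7%). The search was capped at a fixed count per library, so abundant genes were left out by rule. Recovered totals and the CPM values based on them therefore leave out those genes. Voom on the recovered fragments called 0 of 16006 genes in each comparison. The classes of silent-gene signal divide at the largest gap of its log2 values, sought with expert 3 set aside. Expert 3 falls in the lower class. These classes, like the slopes, were made after the values were seen. Promoter coordinates are on RefSeq's build, not mm9.

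The members, lists and named genes were chosen with earlier results of these data known. Named genes were Mrps16, per comparison the 2 members of each subunit and direction with the smallest p, the 3 highest of each subunit among naive libraries, members with a listed structural role, the neighbours of Mrps16 and 2 genes per list and comparison. Mrpl14, Mrpl19, Mrpl39, Mrps2 and Mrps27 were named after their values were seen. Other settings tried covered the pseudocount, filter, scaling, variance model, covariates, replicate block and libraries left out.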

Additional observations from a re-analysis of the deposited data

Results flagged for a closer look

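In the 126 groups of 6 libraries examined (39 named members and 3 family summaries in each training group), 6 values stood apart from their group by Dixon's test. Chance flags about 1 in 20 groups. Naive 6, the library with the fewest recovered fragments, stood apart for Mrpl10, at 27.2 FPKM, and for Mrps35, at 1.72 FPKM, a single fragment. Novice 5 stood apart for Mrpl53, at 16.8 FPKM, and for the median of the large subunit genes, at 11.0 FPKM within a novice range of 10.3 to 11.0. Expert 3, the deepest library, stood apart for Mrps34, at 27.6 FPKM, and expert 2 for Mrpl22, at 4.33 FPKM.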

How the results depend on the processing

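Under 31 other settings and 3 more chosen after seeing the data, 0 members passed the threshold in any comparison. The difference of Mrps16 was -1.74 to -1.36 for novice against naive, -0.53 to -0.17 for expert against naive and 1.04 to 1.36 for expert against novice when 1 library at a time was left out. With only the libraries of higher silent-gene signal it was -2.21 and -1.23 in the first 2 comparisons, and with those of lower signal -1.08 and 0.04; the cause was not tested. The large subunit median was 0.038 instead of -0.05 for novice against naive under quantile normalization. It was 0.26 instead of 0.02 for expert against novice under voom on recovered fragments. There the median over the 16006 genes fitted was itself -0.36, against -0.14 over the 21745 genes of the main fit. Voom left out members without recovered fragments, among them Mrpl1, Mrpl15 and Mrpl48, so its medians cover unlike sets of genes. The cause of these differences was not tested. Over all tested genes, trimmed mean scaling brought the expert against novice median to -0.04 and quantile normalization to 0.04. Leaving out 1 library, the large subunit medians ran from -0.09 to -0.02, -0.12 to -0.0013 and -0.09 to 0.12, and the small subunit medians from -0.15 to 0.02, -0.09 to 0.10 and 0.07 to 0.26. Of the other named genes' values, 7213 moved by less than the spread between libraries and 62 by more. Replicate numbers are shared between groups, and 10 of 18 same-number correlations were above 0.1 (range -0.361 to 0.456). Libraries of unlike number were not compared, so these values cannot decide whether the numbers pair libraries. With the replicate block the Mrps16 difference of novice from naive was -1.57 and 0 members passed, beside 0 of all 21745 tested genes. Depth limits single values, 41.2% of which rested on 10 fragments or fewer.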
